A study of Mus musculus with 12 samples.

Results

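The transcripts of 10 genes of the NF-κB system were followed in myeloid-derived suppressor cells (MDSCs) with and without nanoparticles (NPs) on their surface. The genes were taken by symbol. They are the 5 subunit genes Rela, Relb, Rel, Nfkb1, and Nfkb2, the inhibitor genes Nfkbia and Nfkbie, the atypical inhibitor genes Nfkbiz and Bcl3, and Tnfaip3, which encodes the brake A20. All 10 were among the 35303 symbols of the table, and all 10 passed the filter of 2 counts in total that left 17676 symbols to be tested. Each is a protein-coding gene with 1 entry in the annotation. Bulk RNA sequencing compared 3 groups of 4 libraries each: unmodified MDSCs (MDSC), MDSCs with blank NPs of poly(lactide-co-glycolide) (PLGA) on their surface (MDSC-NP-Blk), and MDSCs whose PLGA NPs were loaded with rapamycin, an inhibitor of the kinase mTOR (CITED). All 3 groups are wild-type mouse cells kept with the cytokine IL-6, according to the labels. The methods describe cells grown from the bone marrow of adult female C57BL/6 mice with IL-6 and GM-CSF and purified for CD11b and Gr1, which gives a mixture of polymorphonuclear and monocytic MDSCs. The conjugated cells had been fed an azido sugar so that the NPs could be attached by click chemistry, and whether the unmodified cells had received it is not stated in the sources used here. The titles call the libraries biological replicates and the study's supplement describes them as biologically independent, without saying whether each came from its own marrow preparation.

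NF-κB proteins are dimers of Rel family members that wait in the cytoplasm, bound by IκB proteins. Toll-like receptors and receptors for TNF or IL-1 activate the IKK kinases, IκB is destroyed, and the dimers enter the nucleus and switch on inflammatory genes. Several of those genes encode the inhibitors themselves, together with Nfkb1, Nfkb2, Relb, and Rel, so the pathway refills its own pool of subunits and brakes. In MDSCs it is known for its part in cell survival and in the output of inflammatory and suppressive mediators.

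The libraries held 20604809 to 37855478 counts, and 3 counts, taken as the smallest amount that could be shown, were 7.92e-06% to 1.46e-05% of a library (counting error only). The 10 genes lay far above this floor, from 555 raw counts for Nfkbiz in MDSC 3 to 17046 for Nfkbia in MDSC-NP-Blk 2. Normalization factors of 1.12 to 1.15 in MDSC stood apart from those of MDSC-NP-Blk (0.938 to 0.947) and CITED (0.921 to 0.944), so the scaling itself separates MDSC from the other groups. Expression also followed transcript length differently among libraries. Over genes, the Spearman correlation of length with a gene's level relative to its mean over all libraries was 0.22 to 0.35 in MDSC and -0.34 to -0.19 in CITED. In MDSC-NP-Blk it was -0.42 in replicate 1 and -0.24 in replicate 4, against -0.047 and 0.092 in replicates 2 and 3. Mitochondrial transcripts took 1.88% to 2.13% of counts in MDSC, 1.4% to 1.53% in CITED, and 1.5% to 1.68% in MDSC-NP-Blk.

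A tissue field in the labels names the CNS. Of 10 CNS cell markers, Snap25, Syt1, Rbfox3, Gfap, and Aqp4 were at 0 in all 12 libraries, Mog was at 0 in both NP groups, and Slc1a2 had group means of at most 0.406 CPM (counts scaled to a fixed library size). The myelin gene Mbp (77.2 to 86.8 CPM) and the microglial gene Tmem119 (56.6 to 74.8 CPM) made up nearly all of the list's sum, which was 134 to 142 CPM for MDSC, 152 to 171 for MDSC-NP-Blk, and 126 to 143 for CITED. All 12 MDSC markers were detected in every group. Their summed level was 25600 to 29200 CPM for MDSC, 35700 to 38000 for MDSC-NP-Blk, and 28500 to 32300 for CITED. The 10 macrophage markers summed to 605 to 635 CPM for MDSC, 486 to 556 for MDSC-NP-Blk, and 698 to 770 for CITED, with Vsig4 and Timd4 at 0 in both NP groups. The 10 dendritic cell markers summed to 526 to 559, 409 to 423, and 497 to 544 CPM in the same order, with Siglech at 0 in CITED. Mast cell and basophil markers summed to 623 to 666, 755 to 866, and 436 to 446 CPM, with Mcpt4 at 0 throughout. Lymphocyte markers summed to 5.64 to 7.75, 4.1 to 6.66, and 2.79 to 3.61 CPM, so that CITED lay below both other groups, and Ncr1 was at 0 throughout. Erythroid markers summed to 3.24 to 5.64 CPM over the 3 groups, with Alas2 at 0 in MDSC and CITED. The part of these cells in the values below was not tested, and in bulk RNA a change in the number of cells of one type cannot be told apart from a change in RNA per cell.

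The starts of these genes were searched for the binding sequence of NF-κB dimers. RefSeq windows on GRCm38.p6 that run from 250 bases before to 50 bases after the start of transcription were given for 7 of the 10 genes, in 10 windows: Nfkb2, Rel, Rela, Nfkbia, Nfkbie, Tnfaip3, and Bcl3. Nfkb1, Relb, and Nfkbiz had no entry. The κB consensus, the site that NF-κB dimers bind, was searched on both strands and no other motif was searched. It was found in 8 of the 10 windows, whereas 1480 of all 32851 windows (4.51%) held it. Among the 8 are overlapping windows of Nfkb2 that share a match. By gene it was found for 6 of the 7, and the share of all genes with a match is not given. The 130 bases ahead of the start are shown for 6 genes, 5′ to 3′ on the gene's strand, with matches to the consensus in capitals. Nfkbia and Tnfaip3 are shown as inhibitors, Nfkb2 and Nfkbie for their position beside them in the values below, and Rel and Rela for the contrast between their values.
Nfkbia, chr12:55492648-55492777, minus strand: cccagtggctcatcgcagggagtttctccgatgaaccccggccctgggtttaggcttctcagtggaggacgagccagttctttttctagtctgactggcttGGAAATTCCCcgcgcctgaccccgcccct
Tnfaip3, chr10:19015411-19015540, minus strand: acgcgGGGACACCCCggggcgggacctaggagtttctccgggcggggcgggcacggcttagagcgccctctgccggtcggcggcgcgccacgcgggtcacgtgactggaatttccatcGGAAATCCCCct
Nfkbie, chr17:45555570-45555699, plus strand: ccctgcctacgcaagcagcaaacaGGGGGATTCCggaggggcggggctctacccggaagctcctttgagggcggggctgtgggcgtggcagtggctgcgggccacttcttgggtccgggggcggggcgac
Nfkb2, chr19:46304607-46304736, plus strand: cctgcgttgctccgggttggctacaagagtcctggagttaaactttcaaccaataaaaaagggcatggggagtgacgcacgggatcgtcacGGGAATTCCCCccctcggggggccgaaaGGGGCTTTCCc
Rel, chr11:23770970-23771099, minus strand: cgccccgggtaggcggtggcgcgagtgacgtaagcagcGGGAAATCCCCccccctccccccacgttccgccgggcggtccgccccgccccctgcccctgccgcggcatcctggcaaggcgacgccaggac
Rela, chr19:5637411-5637540, plus strand: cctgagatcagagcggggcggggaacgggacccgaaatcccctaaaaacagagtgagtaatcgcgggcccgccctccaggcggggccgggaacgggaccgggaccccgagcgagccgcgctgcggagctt

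Counted from -1 at the last base ahead of the start, the match of Nfkbia lay at -29 to -20 and those of Tnfaip3 at -125 to -116 and -12 to -3. The other Tnfaip3 window held no match. Nfkb2 had 2 runs near its first start, GGGAATTCCCC at -39 to -29 and GGGGCTTTCC at -11 to -2. The windows of its other starts overlap and share GGGACTTTCC, and one of them also holds GGAATGTCCC at -236 to -227. Rel had GGGAAATCCCC at -92 to -82, and Nfkbie had GGGGGATTCC at -106 to -97. Bcl3 had GGGAAGTCCC just behind its start, at positions 3 to 12. The Rela window held no match, which says only that these letters are not in this window. A match is a description of the sequence and not a measured binding site.

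With either kind of NP, 9 of the 10 genes were higher than in unmodified MDSCs, and Rel did not pass the test. Against MDSC, the increases ran from 1.24-fold (Nfkb1) to 2.7-fold (Bcl3) in CITED and from 1.3-fold (Nfkb1) to 2.21-fold (Bcl3) in MDSC-NP-Blk. For these 9 genes, every library of either NP group lay above every MDSC library. The share of all genes tested that separate in this way is not given, here or between the NP groups. By edgeR's quasi-likelihood test, with an adjusted p under 0.05 as the threshold, 9 genes were higher and 0 lower in CITED, where 22.2% of all genes tested were higher and 22.2% lower. In MDSC-NP-Blk, 9 were higher and 0 lower, against 19.9% and 18.6% of all genes. All genes tested include weakly expressed ones, and the shares among genes with a mean normalized count above 50 are not given. With a log2 fold change of at least 1 added to the threshold, 4 genes passed in CITED (Nfkb2, Rela, Relb, and Bcl3), against 9.99% of all genes, and 2 in MDSC-NP-Blk (Relb and Bcl3), against 4.74%. The median log2 fold change of the 10 genes was 0.97 in CITED and 0.89 in MDSC-NP-Blk, beside 0.016 and 0.0025 over the 10555 genes with a mean normalized count above 50. Both comparisons use the same 4 MDSC libraries. Scaling by library size alone shifted the median of those 10555 genes to -0.26 in both, and 8 genes were then higher in each. The shares of all genes called under that scaling are not given. Markers of the cells themselves moved as well, since 8 of the 12 MDSC markers were higher and 2 lower in CITED, and 11 were higher and 0 lower in MDSC-NP-Blk. Of the 9 mast cell and basophil markers tested, 1 was higher and 6 lower in CITED, and 7 were higher and 0 lower in MDSC-NP-Blk. Of the 10 macrophage markers, 2 were higher and 6 lower in CITED, and 1 was higher and 6 lower in MDSC-NP-Blk. Of the 10 dendritic cell markers, 3 were higher and 2 lower in CITED, against 2 and 2 in MDSC-NP-Blk. Of the 9 lymphocyte markers tested, 3 fell in CITED and 2 in MDSC-NP-Blk. The only erythroid marker called, of 8, fell in MDSC-NP-Blk, and of the 4 CNS cell markers tested 1 rose in CITED and 2 rose in MDSC-NP-Blk. The part of these cells in the increase was not tested.

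**Figure D1:**
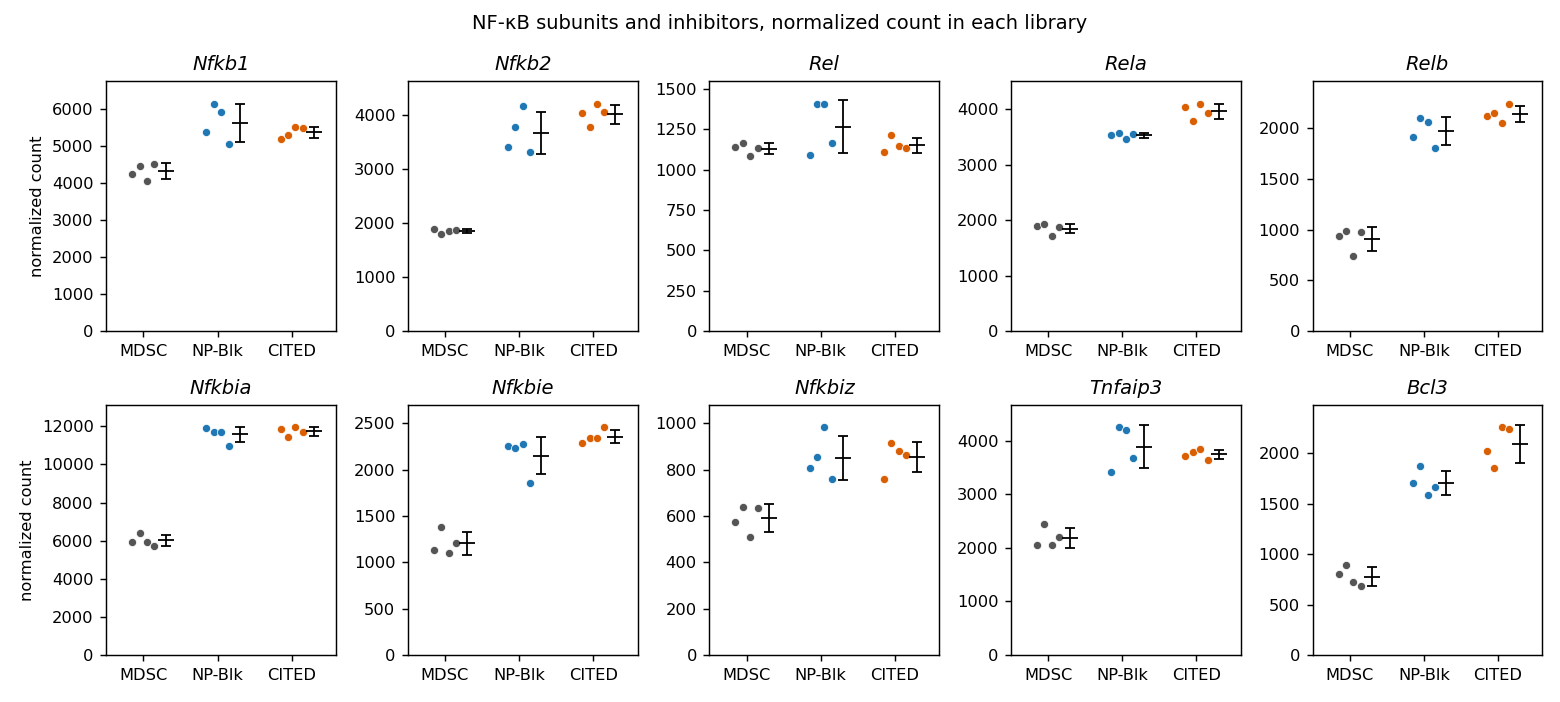
Normalized count (counts scaled to a common library size) of each NF-κB gene in the 12 libraries. Points are libraries in the order of their replicate numbers, bars show the mean ± SD (n = 4), and each axis starts at 0. For every gene but Rel, the points of MDSC-NP-Blk and CITED lie above all MDSC points. The share of all genes that separate in this way is not given.

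Among the subunits, Rela encodes the activating partner of the classical dimer (GRCm39 chr19:5687493-5698161, plus strand). Its normalized counts were 1890, 1925, 1722, and 1872 in MDSC 1 to 4. They were 3535, 3573, 3466, and 3556 in MDSC-NP-Blk 1 to 4. In CITED 1 to 4 they were 4036, 3798, 4102, and 3934. The 3 groups did not overlap, and MDSC-NP-Blk lay between MDSC and CITED. The log2 fold change was 1.10 ± 0.052 (SE; adjusted p = 9.4e-19) for CITED against MDSC and 0.93 ± 0.0519 (adjusted p = 2.6e-16) for MDSC-NP-Blk against MDSC. Over all 12 libraries, 99.2% of the variance of its log2 CPM lay between groups, the highest share of the 10 genes.

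Relb, the subunit of the noncanonical branch that pairs with the Nfkb2 product, lies at chr7:19339017-19363425 (minus strand). It had 938.9, 989.9, 738.6, and 976.7 normalized counts in MDSC. In MDSC-NP-Blk it had 1916, 2106, 2062, and 1810, and in CITED 2120, 2149, 2048, and 2242. Every NP library lay above 1800 and every MDSC library below 1000, and MDSC 3 was the lowest of the 12. The log2 fold changes were 1.23 ± 0.0738 (adjusted p = 4.9e-16) in CITED and 1.12 ± 0.0736 (adjusted p = 1.5e-14) in MDSC-NP-Blk.

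Nfkb2 (chr19:46292759-46303812, plus strand) encodes the precursor p100, which holds RelB back until it is cut to p52. Its normalized counts were 1902, 1800, 1858, and 1867 in MDSC, with an SD of 42.2 around a mean of 1857. In MDSC-NP-Blk they were 3407, 3790, 4180, and 3318, and in CITED 4035, 3780, 4213, and 4054. MDSC-NP-Blk spread more than the other groups, with replicates 2 and 3 on top. The log2 fold changes against MDSC were 1.11 ± 0.0608 (adjusted p = 4.1e-17) in CITED and 0.99 ± 0.0607 (adjusted p = 2.9e-15) in MDSC-NP-Blk. Its exons overlap Psd on the other strand over 1933 bases, and Psd had 708 counts in all 12 libraries together.

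Nfkb1 (chr3:135290264-135397742, minus strand), whose precursor p105 yields the p50 partner of RelA, changed least among the genes that rose. It had 4254, 4467, 4048, and 4510 normalized counts in MDSC. It had 5369, 6139, 5922, and 5047 in MDSC-NP-Blk and 5192, 5302, 5500, and 5496 in CITED. All NP libraries lay above MDSC, by a smaller margin than for Nfkb2. The log2 fold change was 0.31 ± 0.0554 (adjusted p = 1.1e-05) in CITED and 0.38 ± 0.0553 (adjusted p = 6.7e-07) in MDSC-NP-Blk. With library sizes alone, Nfkb1 lost its call in both comparisons, with log2 fold changes of 0.041 (adjusted p = 0.57) and 0.12 (adjusted p = 0.083).

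Rel (chr11:23686847-23721264, minus strand) encodes c-Rel, a subunit best known from lymphocytes and from IL-12 induction in myeloid cells. Its normalized counts were 1140, 1167, 1082, and 1133 in MDSC. They were 1089, 1406, 1408, and 1166 in MDSC-NP-Blk and 1107, 1214, 1145, and 1133 in CITED. The groups overlapped, and MDSC-NP-Blk 2 and 3, the libraries whose length trend differed from that of replicates 1 and 4, were the highest of the 12. The log2 fold change was 0.023 in CITED (95% confidence interval -0.13 to 0.18, adjusted p = 0.84) and 0.17 in MDSC-NP-Blk (0.017 to 0.32, adjusted p = 0.075). Rel has the longest transcript of the 10 genes (7760 bases), and its call turned on the scaling. A correction for transcript length gave log2 fold changes of 0.29 (adjusted p = 3e-04) in CITED and 0.38 (adjusted p = 9.5e-06) in MDSC-NP-Blk, whereas library sizes alone gave -0.25 (adjusted p = 0.0061) and -0.094 (adjusted p = 0.33). Without MDSC-NP-Blk 1 or 4 the value in MDSC-NP-Blk was 0.23 (adjusted p = 0.0093) or 0.20 (adjusted p = 0.04), and without both MDSC-NP-Blk 2 and 3 it was -0.018 (adjusted p = 0.9).

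Both classical IκB genes rose. Nfkbia (chr12:55535332-55539432, minus strand) encodes IκBα, the inhibitor that is destroyed and remade within an activation cycle. Its normalized counts were 5935, 6423, 5929, and 5741 in MDSC. They were 11920, 11720, 11680, and 10990 in MDSC-NP-Blk and 11850, 11430, 11940, and 11720 in CITED. The NP groups overlapped, well above all MDSC libraries. The log2 fold change against MDSC was 0.97 ± 0.0468 (adjusted p = 1.7e-18) in CITED and 0.95 ± 0.0468 (adjusted p = 1.1e-17) in MDSC-NP-Blk.

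Nfkbie (chr17:45866585-45874661, plus strand), which encodes IκBε, had 1131, 1380, 1106, and 1206 normalized counts in MDSC. It had 2252, 2233, 2280, and 1852 in MDSC-NP-Blk and 2290, 2340, 2340, and 2457 in CITED. MDSC-NP-Blk 4 stood below the other libraries of its group, and every CITED library lay above every MDSC-NP-Blk library. The log2 fold change was 0.97 ± 0.0695 (adjusted p = 5.8e-14) in CITED and 0.84 ± 0.0694 (adjusted p = 4.1e-12) in MDSC-NP-Blk.

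The atypical inhibitors, nuclear proteins that can also activate chosen targets, differed from each other. Bcl3 (chr7:19541553-19557570, minus strand) acts through p50 and p52 dimers. It had 802.4, 894.1, 720.2, and 684.6 normalized counts in MDSC. Its counts were 1703, 1876, 1592, and 1669 in MDSC-NP-Blk and 2025, 1857, 2258, and 2243 in CITED. The log2 fold changes of 1.43 ± 0.0778 (adjusted p = 3.5e-17) in CITED and 1.14 ± 0.0776 (adjusted p = 3.4e-14) in MDSC-NP-Blk were above those of the other 9 genes. This order did not hold with a correction for transcript length, under which Nfkb2 came first in both comparisons (1.34 against 1.27 for Bcl3 in CITED, and 1.16 against 1.02 in MDSC-NP-Blk), and for MDSC-NP-Blk Relb came first without MDSC 4 or MDSC-NP-Blk 4. Nfkbiz (chr16:55631738-55659262, minus strand) encodes IκBζ, a cofactor for secondary response genes. It had 575, 640.7, 509.9, and 633.4 normalized counts in MDSC, 806.6, 857, 982.5, and 760.5 for MDSC-NP-Blk, and 761.7, 913.5, 882.5, and 863.5 in CITED. Its increase was smaller, with log2 fold changes of 0.54 ± 0.0873 (adjusted p = 3.1e-06) and 0.53 ± 0.0869 (adjusted p = 4.9e-06).

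Tnfaip3 (chr10:18874201-18891405, minus strand) encodes A20, a ubiquitin-editing enzyme that shuts off signaling ahead of IKK. It had 2054, 2444, 2051, and 2211 normalized counts in MDSC. It had 3425, 4250, 4208, and 3676 in MDSC-NP-Blk and 3719, 3793, 3839, and 3650 in CITED. As for Nfkb1, Nfkb2, Rel, Relb, and Nfkbiz, MDSC-NP-Blk 2 and 3 were the highest libraries of their group. This did not hold for Rela, Nfkbia, Nfkbie, and Bcl3. The log2 fold change was 0.78 ± 0.0638 (adjusted p = 1.7e-12) in CITED and 0.83 ± 0.0636 (adjusted p = 6.5e-13) in MDSC-NP-Blk.

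The comparison of CITED with MDSC-NP-Blk addresses what the rapamycin load adds to the particle. Here 2 of the 10 genes were higher, Bcl3 and Rela, and 0 were lower, beside 10.5% and 11.4% of all genes tested, and 0 passed a log2 fold change of 1, beside 2.65%. A count of 2 among 10 is too near that background to be read as a result about these genes as a group. Bcl3 was 22.5% higher in CITED (log2 fold change 0.29 ± 0.075, adjusted p = 0.0035), although CITED 2 (1857) lay below MDSC-NP-Blk 2 (1876). Rela was 12.3% higher (0.17 ± 0.051, adjusted p = 0.015), with no overlap, and without CITED 3 its adjusted p was 0.054 at a log2 fold change of 0.15. Nfkbie did not overlap either, with a log2 fold change of 0.13 (95% confidence interval -0.0094 to 0.27, adjusted p = 0.2).

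For the other 7 genes the intervals limit how far CITED and MDSC-NP-Blk could differ. Nfkbia had the narrowest, -0.075 to 0.11 around a log2 difference of 0.019 (adjusted p = 0.85). The intervals were -0.17 to 0.18 for Nfkbiz (adjusted p = 1), -0.18 to 0.074 for Tnfaip3 (adjusted p = 0.61), and -0.18 to 0.047 for Nfkb1 (adjusted p = 0.45). Relb had -0.030 to 0.26 (adjusted p = 0.29), and Rel had -0.30 to 0.0079 (adjusted p = 0.19). Nfkb2 had 0.0082 to 0.25 around 0.13 (adjusted p = 0.13), and it was called when length was corrected (0.18, adjusted p = 0.0048), without MDSC-NP-Blk 3 (0.20, adjusted p = 0.0082), or without both MDSC-NP-Blk 2 and 3 (0.26, adjusted p = 0.00062). Rel was called lower without MDSC-NP-Blk 1 (-0.21, adjusted p = 0.032). None of these intervals reached a log2 difference of 1. The median log2 difference of the 10 genes was 0.068, beside 0.0073 over the genes with a mean normalized count above 50.

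**Figure D2:**
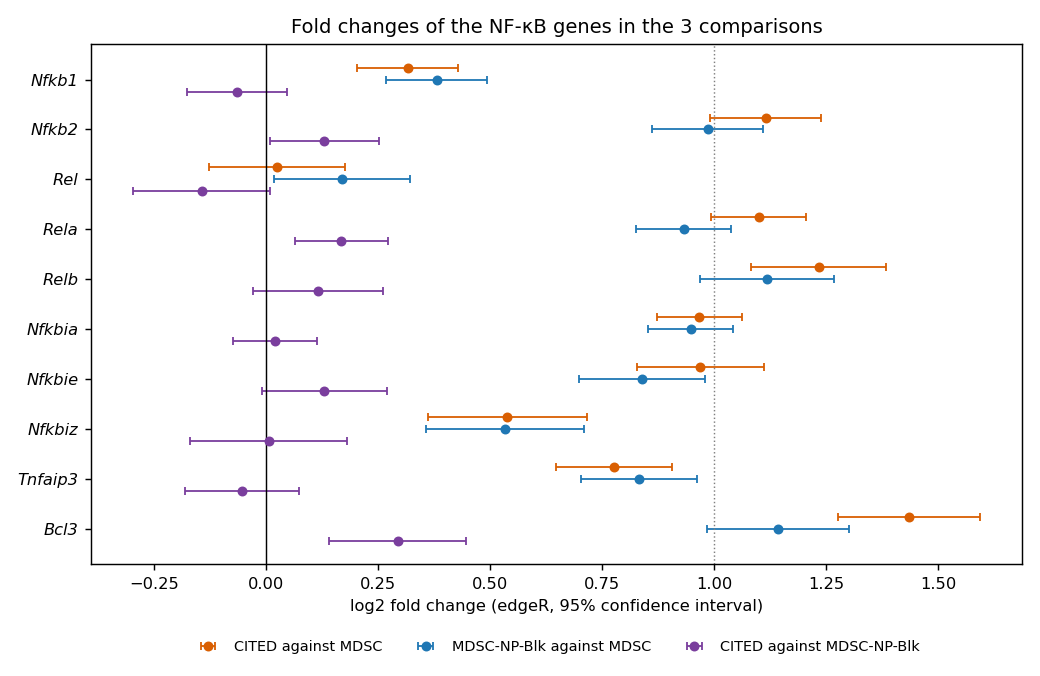
Log2 fold change of each NF-κB gene in the 3 comparisons, from edgeR's quasi-likelihood fit of all 12 libraries. Points are estimates, bars are 95% confidence intervals, the solid line marks 0, and the dotted line marks 1. For 9 genes the values against MDSC lie between 0.31 and 1.43 and those of CITED against MDSC-NP-Blk between -0.066 and 0.29, and Rel lies between -0.14 and 0.17.

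Levels of different genes were compared as CPM per kilobase of the canonical transcript, with library sizes adjusted by the normalization factors. Nfkbia led in every group, at 155 CPM per kilobase for MDSC, 298 for MDSC-NP-Blk, and 302 for CITED, and its libraries overlapped those of no other gene. In MDSC it was followed by Nfkb1 (37.3), Rela (27.7), and Nfkbie (19.9), all set apart from their neighbors, and then by Bcl3 (15.6) and Tnfaip3 (12.9), whose libraries overlapped. Nfkb2 (11.2) and Relb (10.9) overlapped, and so did Nfkbiz and Rel, both at 5.93. The order differed in the NP groups. Rela (52.9) and Nfkb1 (48.6) overlapped in MDSC-NP-Blk, and in CITED Rela (59.4) lay above Nfkb1 (46.4) without overlap. Bcl3 reached 34.5 in MDSC-NP-Blk and 42.3 in CITED, where it overlapped with both Nfkb1 and Nfkbie (39). Relb, Nfkb2, and Tnfaip3 held the middle, at 22.1 to 25.6 in CITED and 22.1 to 23.6 in MDSC-NP-Blk. Rel was last in both NP groups, at 6.64 and 6.02, without overlap with Nfkbiz (8.56 and 8.6).

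**Figure D3:**
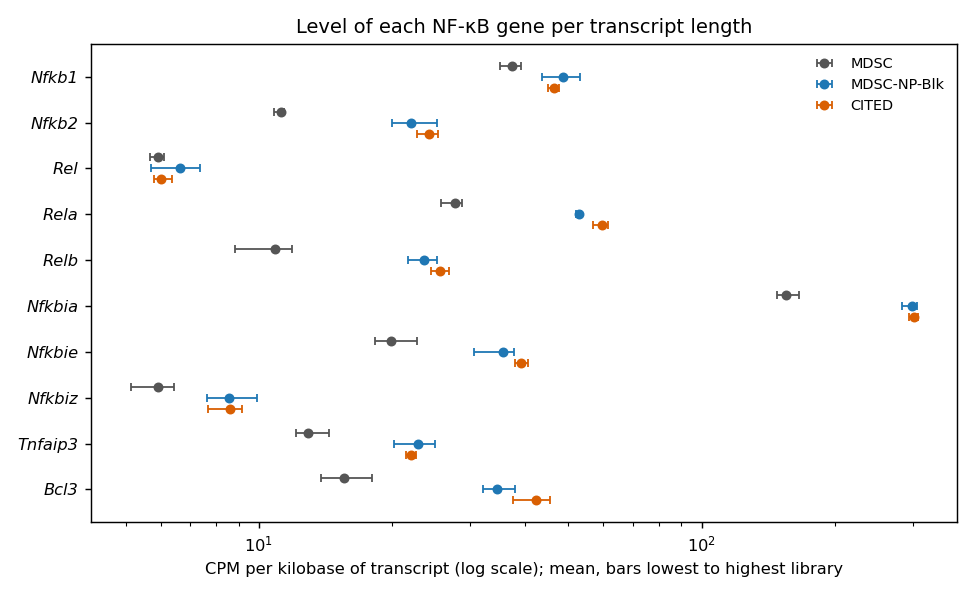
CPM per kilobase of canonical transcript for each NF-κB gene, on a log scale. Points are group means (n = 4), and bars run from the lowest to the highest library. Nfkbia is the most abundant of the 10 transcripts in all 3 groups, between 155 and 302, and Rel lies between 5.93 and 6.64.

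Ratios of raw counts within a library do not depend on how libraries are scaled, although they still carry the length trend. These ratios were chosen after the values had been seen and are given without a test. Rela to Rel, the subunits of the classical dimers, was 1.59 to 1.66 in MDSC (1.64 ± 0.0312, SD, n = 4). It was 2.46 to 3.25 for MDSC-NP-Blk (2.82 ± 0.383), and 3.13 to 3.65 for CITED (3.46 ± 0.23). Nfkb2 to Nfkb1, the p100 and p105 precursors, was 0.403 to 0.459, 0.617 to 0.706, and 0.713 to 0.777 in the same order, and no group overlapped another. Bcl3 to Nfkbiz was 1.08 to 1.41, 1.62 to 2.19, and 2.03 to 2.66. Nfkbia to Rela, the inhibitor and the subunit it binds, varied less, from 3.25 ± 0.174 in MDSC and 3.28 ± 0.132 in MDSC-NP-Blk to 2.96 ± 0.0444 in CITED. The Nfkbia to Rela ratios of MDSC and MDSC-NP-Blk overlapped, and those of CITED lay below both, whereas the Rela to Rel and Nfkb2 to Nfkb1 ratios of both NP groups lay above MDSC.

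**Figure D4:**
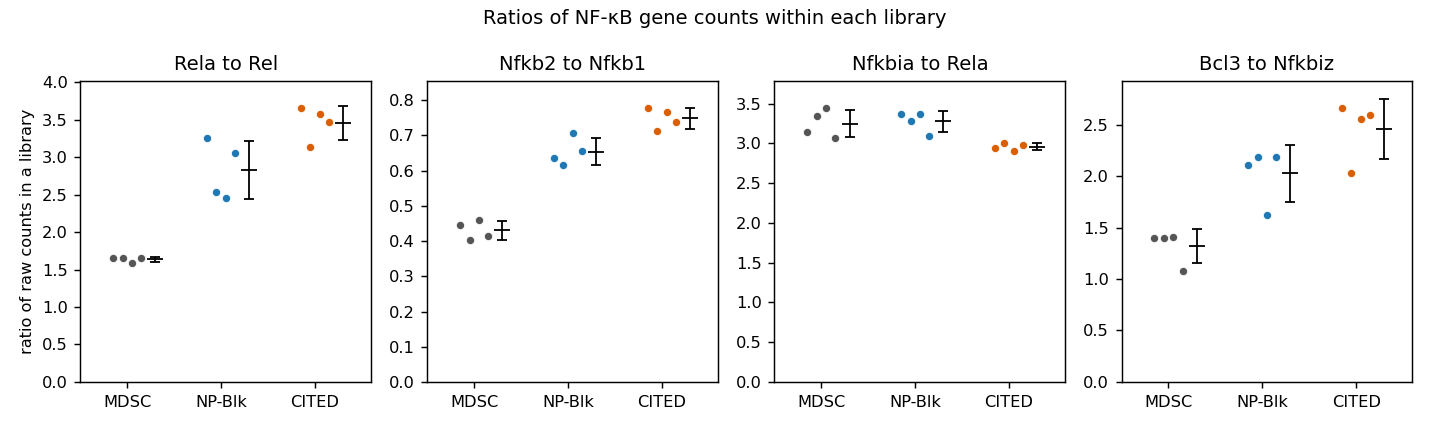
Ratio of raw counts of gene pairs within each library. Points are libraries in the order of their replicate numbers, and bars show the mean ± SD (n = 4). The Rela to Rel and Nfkb2 to Nfkb1 ratios of both NP groups lie above all MDSC libraries, and the Nfkbia to Rela ratio lies between 2.91 and 3.44 in all 12.

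Across the 12 libraries, the 9 genes other than Rel varied together. Pearson's r of log2 CPM was 0.863 to 0.987 for their 36 pairs and 0.262 to 0.638 for the 9 pairs with Rel, as a description only, since libraries of a group share its condition. The between-group share of variance was 93.7% to 99.2% for Rela, Nfkbia, Nfkb2, Bcl3, Relb, Nfkbie, and Tnfaip3, 82.2% for Nfkb1, 80.5% for Nfkbiz, and 31.4% for Rel. Among 10554 other genes with a mean normalized count above 50, the profile nearest to Nfkbia was that of Actg1, followed by Birc3 (r = 0.997 for both), which encodes the ubiquitin ligase cIAP2. Nearest to Rela were Dazap2, Fcgr3, and Tprg1l (0.996), to Nfkb1 Icam1 (0.987), Csf1, and Irf4 (both 0.984), to Nfkb2 Egr1 (0.994), and to Relb Osbpl9 (0.992). Tnfaip3 was nearest to Stk17b (0.994), Nfkbie to Osm (0.992), Bcl3 to Ubald1, Plod3, and Sirt2 (0.993), and Nfkbiz to Sec24b (0.975). Rel was nearest to Jak2 (0.930), Man2a1 (0.915), and Nab1 (0.894).

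The other genes of the pathway were grouped in 4 lists, whose counts stand beside the shares of all genes given above (22.2% higher and 22.2% lower in CITED, 19.9% and 18.6% in MDSC-NP-Blk). Of 20 other IκB proteins and brakes, 14 were higher and 1 lower in CITED than in MDSC, and 14 were higher and 0 lower in MDSC-NP-Blk, with median log2 fold changes of 0.44 and 0.39. Library sizes alone turned these counts into 9 higher and 6 lower, and 8 higher and 5 lower. For all 4 lists, the shares of all genes hold for the fit with normalization factors, and those under library sizes alone are not given. Nfkbib, which encodes IκBβ, rose from 556.7 ± 89.5 normalized counts (SD, n = 4) in MDSC to 1223 ± 91.7 in CITED (log2 fold change 1.14 ± 0.0889, adjusted p = 5e-13) and 917.3 ± 72.3 in MDSC-NP-Blk (0.72 ± 0.0892, adjusted p = 3.4e-08). Nfkbil1 rose from 239.8 ± 20.8 to 636.4 ± 54.2 in CITED and, with blank NPs, 560.3 ± 58.7. Tnip1, which encodes an adaptor of A20, rose from 2660 ± 167 to 5150 ± 250 and 4580 ± 224. N4bp1 rose from 7574 ± 170 to 11010 ± 281 in CITED and 11590 ± 1260 in MDSC-NP-Blk. Tnip3, also an A20 partner, fell from 586.8 ± 48.4 to 459.9 ± 69.5 in CITED (-0.36 ± 0.1, adjusted p = 0.0034).

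In the 32 genes of the IKK complex and the adaptors and kinases ahead of it, the medians were lower. In CITED 17 were higher and 2 lower than in MDSC, and in MDSC-NP-Blk 13 were higher and 4 lower, with medians of 0.24 and 0.12, whereas library sizes alone gave 8 higher and 10 lower, and 8 higher and 11 lower. Birc3 rose from 3187 ± 134 in MDSC to 6253 ± 19.5 in CITED and, with blank NPs, 6120 ± 262, and Bcl10, an adaptor of the CARD complexes, from 1815 ± 32.4 to 3218 ± 153 and 3253 ± 96.4. Irak2, which encodes a member of the Toll-like receptor complex, rose from 1698 ± 52.4 to 3117 ± 81.4 and 2786 ± 124. Birc3 shares 10.9% and Irak2 10.4% of their 31-base words with transcripts of other genes. Map3k7, which encodes the kinase TAK1, fell from 1244 ± 35.8 to 907.9 ± 73.8 in CITED and, with blank NPs, 917.8 ± 96.8. Traf6, a ubiquitin ligase of the same route, fell from 2273 ± 80.9 to 1890 ± 95 in CITED. In MDSC-NP-Blk, Irak1 fell from 2235 ± 30.9 to 1966 ± 156, and the IKK gene Chuk from 1227 ± 67.5 to 1081 ± 115.

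Of 21 receptors upstream of NF-κB, 12 were higher and 3 lower in CITED than in MDSC, and 11 were higher and 4 lower in MDSC-NP-Blk, with medians of 0.43 and 0.20. With library sizes alone these counts became 11 and 6, and 6 and 5. Cd14, the co-receptor for lipopolysaccharide, rose from 7268 ± 284 normalized counts to 56880 ± 1020 in CITED and, with blank NPs, 44250 ± 2610 (log2 fold changes 2.97 ± 0.0476 and 2.61 ± 0.047). The β-glucan receptor gene Clec7a rose from 4456 ± 353 to 9740 ± 545 in CITED and 5887 ± 1150 in MDSC-NP-Blk. Tlr7 rose from 782.5 ± 62.8 to 1465 ± 54.8 in CITED and 1062 ± 98.4 in MDSC-NP-Blk. Tlr2 rose from 6284 ± 491 to 10560 ± 316 in CITED and 9924 ± 1380 in MDSC-NP-Blk. The TNF receptor gene Tnfrsf1b rose from 7098 ± 200 to 10700 ± 288 in CITED and 10630 ± 894 in MDSC-NP-Blk. Tlr5, the flagellin receptor gene, fell from 52.97 ± 13.3 to 20.31 ± 5.14 in CITED and, with blank NPs, 24.32 ± 4.2. Tlr9 was also called lower in both NP groups, Il18r1 only in CITED, and Tnfrsf11a and Tlr1 only in MDSC-NP-Blk.

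Most of the 40 NF-κB target genes rose. In CITED 32 were higher and 4 lower than in MDSC, and in MDSC-NP-Blk 32 were higher and 4 lower, with medians of 0.94 and 0.90, and library sizes alone left 30 and 31 higher and 4 lower in each. Il10 was at 0 in all MDSC and CITED libraries, so no fold change is given for it, and without Il10 the medians were 0.96 and 0.90. The neutrophil chemokine gene Cxcl3 rose from 3464 ± 117 to 32360 ± 1480 in CITED and, with blank NPs, 15590 ± 591, and Ehd1, an endocytic recycling gene, from 6641 ± 262 to 20390 ± 533 and 14990 ± 841. Plaur, the urokinase receptor gene, rose from 11370 ± 478 to 30840 ± 1440 in CITED and 19190 ± 1030 in MDSC-NP-Blk. The early response gene Ier3 rose from 3333 ± 92.4 to 8680 ± 223 in CITED and 8363 ± 410 in MDSC-NP-Blk. Other targets fell. Ccl2, the monocyte chemokine gene, fell from 1242 ± 69.7 to 34.22 ± 14.1 in CITED (-5.18 ± 0.158, adjusted p = 9e-24) and 15.86 ± 6.84 in MDSC-NP-Blk (-6.21 ± 0.173, adjusted p = 4.1e-24). Nos2, which encodes inducible nitric oxide synthase, fell from 3601 ± 268 to 412.8 ± 55.8 in CITED (-3.12 ± 0.176) and to 2406 ± 1080 in MDSC-NP-Blk (-0.59 ± 0.154, adjusted p = 0.0022). Vcam1 fell from 652.6 ± 79.6 to 153.6 ± 21.6 in CITED and 502.3 ± 58.8 in MDSC-NP-Blk. Ptx3 fell from 3119 ± 149 to 2181 ± 85 in CITED and 2703 ± 150 in MDSC-NP-Blk.

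Between CITED and MDSC-NP-Blk, where 2 of the 10 NF-κB genes passed the test, 14 targets were higher and 7 lower (median 0.15), beside the same 10.5% and 11.4% of all genes. Cxcl3 (1.05 ± 0.0459), Plaur (0.68 ± 0.0474), and the gelatinase gene Mmp9 (0.65 ± 0.0497) were higher in CITED, and Nos2 (-2.53 ± 0.175), Vcam1 (-1.71 ± 0.114), and the acute phase gene Saa3 (-0.55 ± 0.0821) were lower. Of the receptors, 7 were higher and 1 lower (median 0.25), with Clec7a (0.72 ± 0.0809), Tlr7 (0.46 ± 0.0734), and Cd14 (0.36 ± 0.0441) higher and Il18r1 (-0.71 ± 0.108) lower. Of the IKK complex and its adaptors, 7 were higher and 2 lower (median 0.063), with Ikbkg, the gene of the regulatory subunit NEMO (0.34 ± 0.0602), Rnf31 (0.33 ± 0.0691), and Traf5 (0.49 ± 0.128) higher and Traf6 (-0.39 ± 0.0565) and Traf1 (-0.22 ± 0.0786) lower. Of the other brakes, 5 were higher and 1 lower (median 0.028), with Zc3h12a, the gene of the RNase regnase-1 (0.42 ± 0.0788), Nfkbib (0.42 ± 0.0869), and Tnip2 (0.41 ± 0.125) higher and the deubiquitinase gene Cyld (-0.19 ± 0.0552, adjusted p = 0.0086) lower.

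**Figure D5:**
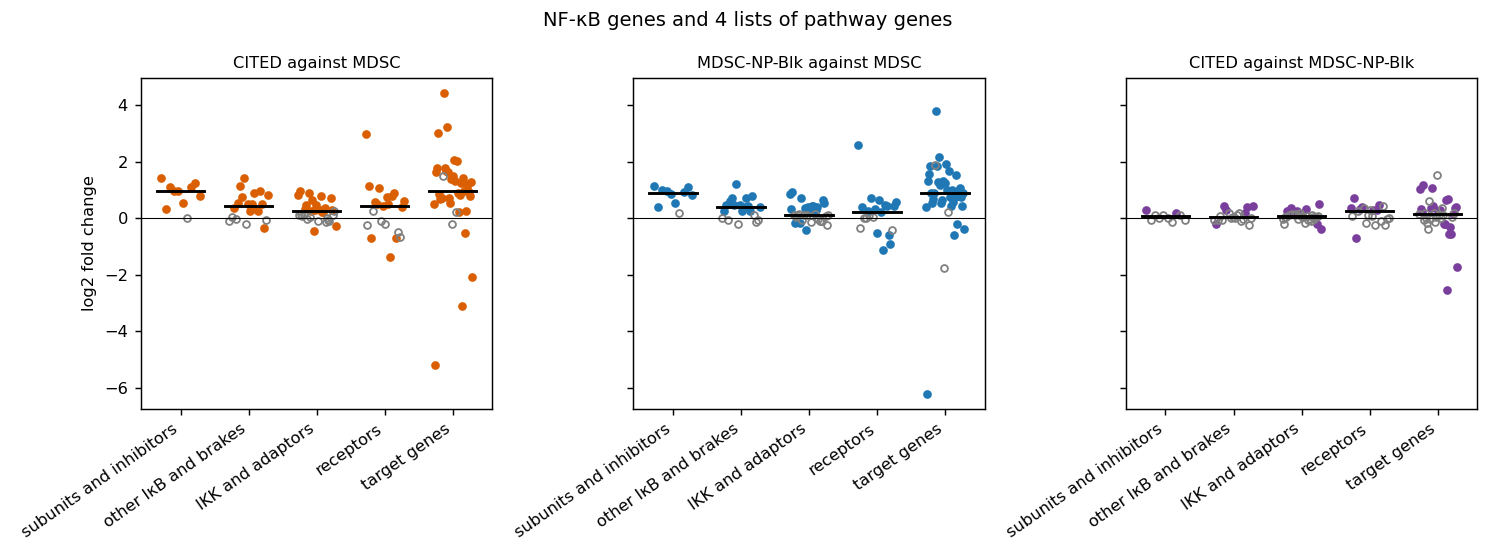
Log2 fold change of the 10 NF-κB genes and of the genes in 4 pathway lists, in each comparison. Each point is a gene, filled where its adjusted p (edgeR) is under 0.05 and open where it is not, and black lines are medians. Il10, at 0 in MDSC and CITED, is left out. Against MDSC, the medians of the NF-κB genes (0.97 and 0.89) and of the targets (0.96 and 0.90) lie above those of the other 3 lists (0.12 to 0.44).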

How the data were processed

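Poly(A)-selected bulk RNA was sequenced in 12 libraries, 4 of each group, whose titles gave the groups. The authors deposited raw counts per gene symbol in whole numbers, quantified with Salmon 1.4.0 against GENCODE transcripts of GRCm39 and summed per gene in R 4.3.2, with no normalization and no filter on low counts. The GENCODE release and the strand setting are not given in the sources used here. One entry with an empty symbol held 0 counts and was left out.

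Symbols with 2 or more counts in total (17676) were tested in R 4.3.3 with edgeR 4.0.16 (TMM factors, glmQLFit and glmQLFTest with the group as the only term, all 12 libraries in 1 fit). P-values were adjusted over all genes tested by the method of Benjamini and Hochberg, with a threshold of 0.05 and, as a second rule, an absolute log2 fold change of 1. Total counts per library were 20604809 to 37855478. Normalized counts are counts divided by the adjusted library size and scaled to the mean library. The prior count for log2 CPM was 2. Lengths and positions are those of GENCODE release M39 on GRCm39, which may differ from the release of the authors, and 99.84% of the genes tested had a length. Promoter windows came from RefSeq on GRCm38.p6. The steps were tested on simulated data before use.

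The 10 genes, the pathway lists, and the marker lists were chosen with earlier results of these data known. All 10 genes are named. From each list, the genes named are those with the 3 lowest p-values in each direction among genes called in a comparison, and a few of these are left out of the text. Likeness of profiles was taken from the 3 highest Pearson correlations per gene. Psd, Il10, Map3k14, Ltbr, Ikbkb, Birc2, Traf2, Traf3, Cd40, and Tnfrsf13c were added after their values had been seen. So were results of Nfkbib, N4bp1, Clec7a, Tlr2, Tlr7, and Tlr9 in the NP group where the rule did not name them. This also holds for Tnfrsf1b, Plaur, Ier3, Vcam1, and Ptx3, and for Chuk outside MDSC-NP-Blk against MDSC. The alternatives were DESeq2 1.42.0, other factors, other filters, robust estimation, fits of only the 8 libraries compared, the replicate number as a block, a loess correction for length (span 0.5), both of these together, a test against the fold change threshold, and fits that each left out 1 library. Figures were drawn with Python 3.11.15 and matplotlib 3.10.9.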

Additional observations from a re-analysis of the deposited data

Results flagged for a closer look

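The normalized count of Nfkbie in MDSC-NP-Blk 4 was 1852, against 2233 to 2280 in the other 3 libraries of its group. Its gap to the nearest of them, divided by the range of the group, was 0.889, above Dixon's critical value for 4 samples at the 95% level. It was the 1 value set apart in this way among 30 groups of 4 (10 genes in 3 conditions), where a level of 5% would set apart between 1 and 2 by chance. With or without this library, Nfkbie was called higher in MDSC-NP-Blk than in MDSC and was not called between CITED and MDSC-NP-Blk.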

How the results depend on the processing

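Of the increases against MDSC, those of Nfkb2, Rela, Relb, Nfkbia, Nfkbie, Nfkbiz, Tnfaip3, and Bcl3 kept their direction and their side of the threshold of 0.05 under the alternatives. The test against a fold change, given below, is not among these. The shares of all genes called under each alternative are not given, so the counts below have no background beside them. Library sizes alone left 1 gene past a log2 fold change of 1 and made 1 gene lower (Rel) for CITED against MDSC, and left 0 past a log2 fold change of 1 for MDSC-NP-Blk against MDSC. A test against that fold change left 2 and 0. The length correction gave 4 for MDSC-NP-Blk against MDSC, with or without a replicate block. The counts for CITED against MDSC-NP-Blk ranged from 1 to 3 when 1 library was left out at a time, and those of genes lower from 0 to 1 (Rel without MDSC-NP-Blk 1). Rel changed sign for CITED against MDSC with library sizes alone (-0.25) and without CITED 2 (-0.0037, lowest of a range up to 0.039 when 1 library was left out). For MDSC-NP-Blk against MDSC it did so with library sizes alone (-0.094) and without both MDSC-NP-Blk 2 and 3 (-0.018), an alternative added after seeing the data. Between CITED and MDSC-NP-Blk, leaving out those 2 libraries also turned Nfkb1 (0.045), Rel (0.027), and Tnfaip3 (0.079). The length correction turned Nfkbia (-0.024) and Tnfaip3 (0.0013), and with the replicate block added the values were -0.0225 and 0.0053. Nfkbiz turned with library sizes alone (-0.0062) and Nfkbia without MDSC-NP-Blk 4 (-0.0025, lowest of a range up to 0.034). Nfkbiz, near 0 throughout, ranged from -0.042 to 0.081 when 1 library was left out, with negative values without MDSC-NP-Blk 1, MDSC-NP-Blk 4, CITED 2, and CITED 3. The cause of these changes was not tested.

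Libraries with the same replicate number deviated from their group means with correlations of -0.039 to 0.074, -0.06 to 0.027, and -0.058 to 0.14 in the 3 comparisons, and 1, 0, and 2 of 4 libraries correlated best with their own number, so the numbers were not taken as pairs. The replicate block gave 9, 9, and 2 genes called, the same counts as without it. The lowest raw count of the 10 genes in a library was 555, and the biological coefficient of variation of the fit over all genes was 9.03%.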

Other observations

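Map3k14 and Ltbr, upstream genes of the noncanonical branch, were chosen after their values had been seen. Map3k14, which encodes the kinase NIK that triggers the cutting of p100, had 563.4 ± 64.8 normalized counts (SD, n = 4) in MDSC, and it rose to 871.2 ± 77.5 in CITED (log2 fold change 0.63 ± 0.084, adjusted p = 8.2e-08 by edgeR) and to 725.2 ± 26 in MDSC-NP-Blk (0.36 ± 0.0842, adjusted p = 0.00059). The lymphotoxin receptor gene Ltbr rose from 1005 ± 78.8 to 1412 ± 29.3 in CITED (0.49 ± 0.0669, adjusted p = 1.3e-07) and had 1079 ± 26.8 in MDSC-NP-Blk (0.10 ± 0.0672, adjusted p = 0.25). Between CITED and MDSC-NP-Blk, both Map3k14 (0.27 ± 0.0833, adjusted p = 0.017) and Ltbr (0.39 ± 0.067, adjusted p = 2.8e-05) were higher in CITED. Other listed genes of this branch did not all rise. Chuk had log2 fold changes of 0.0725 (adjusted p = 0.44) in CITED and -0.18 (adjusted p = 0.046) in MDSC-NP-Blk. It was higher in CITED than in MDSC-NP-Blk (0.25, adjusted p = 0.0092). Traf2, Traf3, and the weakly expressed Cd40 and Tnfrsf13c were not called in any comparison. Tnfrsf11a was lower in MDSC-NP-Blk (-0.92, adjusted p = 0.00067). Birc3 rose in both NP groups, and Birc2 in MDSC-NP-Blk (0.31, adjusted p = 0.0017). The catalytic IKK gene Ikbkb, of the classical route rather than this branch, did not pass the test in any comparison. It had 1654 ± 33.6 in MDSC, 1831 ± 94.2 in CITED, and 1692 ± 133 in MDSC-NP-Blk, and the smallest adjusted p was 0.051.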
